A study of Mus musculus with 3 samples.

Results

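The B7 family and CD40 are cell surface proteins through which antigen-presenting cells and T cells instruct each other. Here 6 of their genes, Cd80, Cd86, Cd83, Icosl, Cd276 and Cd40, and the 2 antibody tags against their proteins, CD86 and CD83, were followed across the myeloid, dendritic and carcinoma cells of metastasis-bearing mouse brains. Cd80 (chr16:38457430-38495958) and Cd86 (chr16:36568956-36666158) lie on chromosome 16, Cd83 on chromosome 13 (chr13:43785112-43803133) and Cd40 on chromosome 2 (chr2:165055614-165071654), all in build GRCm38.p6 by RefSeq. The 6 genes were chosen by name among 31062 genes and transgenes counted, and the 2 tags among 35 antibodies. The cells came from female C57Bl/6 mice aged 2 to 3 months whose brains carried metastases grown from E0771 cells, a mammary carcinoma line of the mouse that had been injected into the carotid artery. Some of the mice received antibodies against VISTA and PD-L1 on alternate days from 3 days after the injection and the others did not. Brains were perfused with saline and digested, and immune cells were enriched on a Percoll gradient. The label of the transcript library gives 1 brain hemisphere per biological sample, while those of the tag and hashtag libraries give 2 and 3. Each of 8 samples was stained with the antibodies, marked with its own hashtag antibody and pooled into 1 capture, so that transcripts, antibody tags and hashtags were read from the same cells (CITE-seq). The labels do not tell which hashtags carried treated brains, and the effect of treatment was not analysed here. Cell classes were compared within hashtag samples.

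CD80 and CD86 bind CD28 on T cells, the co-stimulatory signal that accompanies antigen, and also bind CTLA-4, which restrains T cells. ICOS ligand, encoded by Icosl, binds ICOS on activated T cells, while B7-H3, encoded by Cd276, is a B7 relative without a settled receptor that is found on many tumours. CD83 is a surface protein of mature dendritic cells that keeps CD86 and MHC class II on the surface by opposing their ubiquitination by MARCH1. CD40 is a receptor of the TNF receptor family on antigen-presenting cells, and its engagement by CD40 ligand on T cells switches on NF-kappa-B and raises CD80 and CD86.

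The 3 libraries (transcripts, tags, hashtags) shared the same 12908 cell barcodes. Of these, 9896 were singlets by hashtag (100 to 2316 per hashtag sample), and 7513 of the singlets fell into a class gated on marker transcripts, with no member gene and no antibody tag in any gate. The singlets of a hashtag sample held 4898693 to 125193153 transcript molecules (UMIs) in all. The gates gave 39 mature dendritic cells (Ccr7 and Fscn1, called mature DC), 168 conventional dendritic cells (cDC), 460 monocytes, 411 microglia, 4360 barcodes with both Krt8 and Wfdc2, and 643 macrophages. Median depth was 7447, 10574.5, 9176, 7960, 84290 and 13621 UMIs in that order. Levels are given in CPM, UMI counts scaled to a common total, summed over the cells of a class in 1 hashtag sample, where it held at least 10 such cells. The labels leave unsaid if the hashtags stand for different mice, and all p-values refer to the spread among hashtag samples, which may be technical.

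The classes were set against marker lists. Mature DC carried 8 of 8 mature dendritic markers in at least 10% of cells, monocytes 9 of 9 monocyte markers, microglia 9 of 9 microglia markers and macrophages 10 of 10 macrophage markers. cDC carried 5 of 5 markers of the type 1 subset and 4 of 5 of the type 2 subset. Monocyte markers were shared: 7 of 9 were in cDC, at 4631 CPM summed, and 9 of 9 in macrophages, at 4232 CPM. Macrophage markers were shared too: 8 of 10 were in microglia, at 26798 CPM summed, against 21017 CPM in macrophages themselves. Monocytes and cDC carried 7 of 10, at 4506 and 1670 CPM, and mature DC 8 of 10, at 1439 CPM. The gate meant for carcinoma cells was weaker, since apart from its own Krt8 and Wfdc2 none of the 12 listed carcinoma markers reached 10% of barcodes. Krt18 was in 9.68% of them, and Cldn4 had no UMI in 4360 barcodes, which allows a share of up to 0.0688%. These are called Krt8+Wfdc2+ barcodes below. The part that shared monocyte or macrophage markers or depth play in the results was not tested.

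The members did not move as a block between classes. Each class was compared with the macrophages of the same hashtag samples by edgeR's quasi-likelihood test with Benjamini-Hochberg adjustment over all genes tested at 0.05, and mature DC were compared with cDC. In microglia (7 samples) Cd83 and Icosl rose and Cd40, Cd80 and Cd276 fell, where 26.8% of all 7196 genes tested rose and 26.5% fell. In monocytes (6 samples) Cd80, Cd86 and Cd83 rose and Icosl and Cd276 fell, against 22% higher and 21.6% lower among 6954 genes. In cDC (6 samples) Cd80, Cd83 and Icosl rose among the 5 members that passed the filter on low counts, against 15.5% higher and 16.8% lower among 5621 genes. In Krt8+Wfdc2+ barcodes (7 samples) all members except Cd276 fell, where 48.5% of 11807 genes rose and 32.6% fell. For Cd80, Cd86, Cd83 and Icosl these barcodes did not overlap with macrophages in any sample, as held for 64.5% of the genes tested. In mature DC against cDC, Cd40, Cd83, Cd80 and Icosl rose among the 5 members that passed the filter, against 16.9% higher and 14.5% lower among 2937 genes. That comparison rests on 3 hashtag samples, because only sample 5 had 10 mature DC, and the minimum was lowered to 5 cells after this had been seen.

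**Figure D1:**
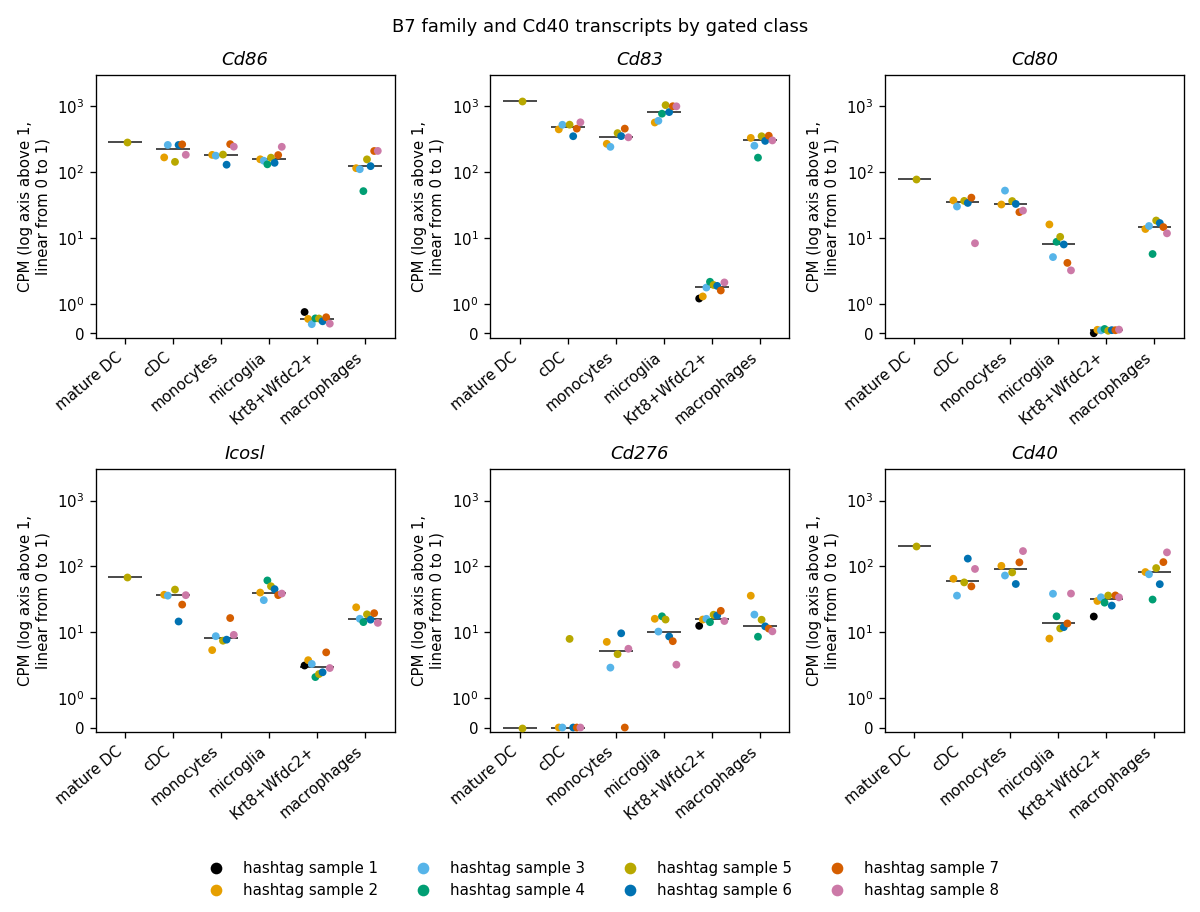
Levels of the 6 transcripts (CPM, on an axis that is logarithmic above 1 and linear from 0 to 1) by gated class, 1 point per hashtag sample with at least 10 cells and a line at the median. Krt8+Wfdc2+ barcodes lie below 3 CPM for Cd86, Cd83 and Cd80 but between 12.6 and 21.2 CPM for Cd276, where cDC lie at 0 in 5 of 6 samples.

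**Figure D2:**
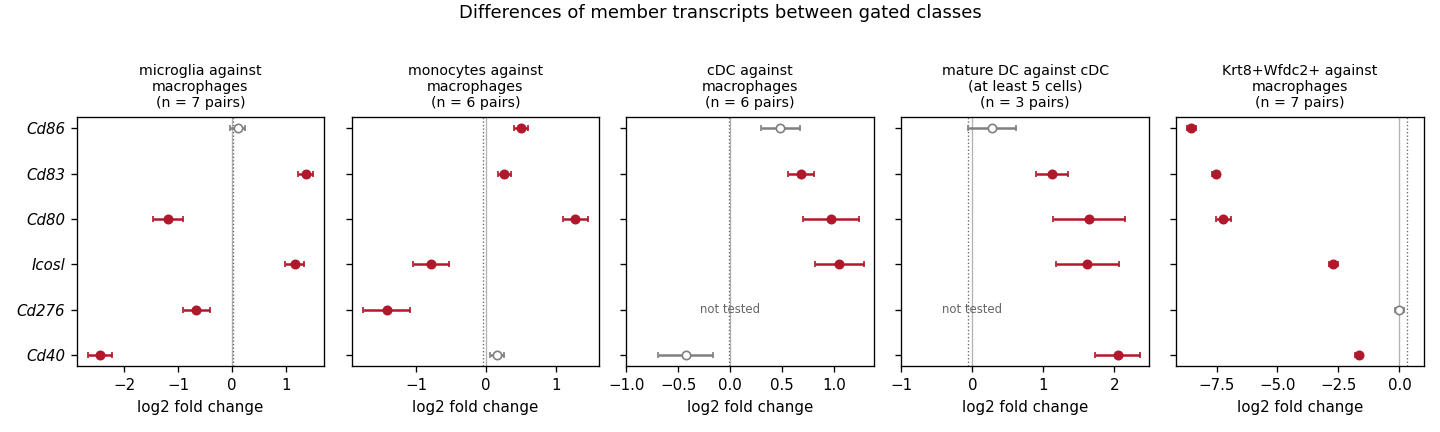
Log2 fold changes (edgeR, bars show 1 standard error) of each member in 5 comparisons within hashtag samples, filled and red where the adjusted p is below 0.05 and open where it is not, with a dotted line at the median of all genes tested. Cd40 lies at -2.45 in microglia against macrophages and at 2.05 in mature DC against cDC, and Cd276 passed no filter in either dendritic comparison.

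Among the ligands of CD28, Cd86 lay close together in cDC, monocytes, microglia and macrophages. Neutrophil samples held 0 to 87.8 CPM (n = 4) and the 2 pDC samples 21.4 and 25.7 CPM. The levels in the hashtag samples were 143 to 264 CPM in cDC (median 221, n = 6), 130 to 266 CPM in monocytes (median 184, n = 6), 131 to 242 CPM in microglia (median 157, n = 7) and 51.5 to 210.0 CPM in macrophages (median 123, n = 7). In that order each class overlapped with the next. Monocytes averaged 197 ± 49.3 CPM and macrophages of the same samples 154 ± 45.9 CPM (SD, n = 6), a log2 fold change of 0.50 (SE 0.10, edgeR adjusted p = 0.000583), and monocytes were higher in 6 of 6 samples. Microglia did not pass the test against macrophages (log2 fold change 0.11, SE 0.14, adjusted p = 0.542), and cDC did not either (0.48, SE 0.19, adjusted p = 0.0657). The cDC value did pass without hashtag sample 5 (0.62, adjusted p = 0.0461) or without sample 8 (0.66, adjusted p = 0.0242).

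Cd86 was nearly absent from Krt8+Wfdc2+ barcodes, at 0.309 to 0.724 CPM over 8 samples, 8.53 below macrophages on the log2 scale (-8.53, SE 0.18, edgeR adjusted p = 3.65e-19). The gate itself admitted only barcodes with under 1 UMI of 4 leukocyte genes per 10000 UMIs. T cells held 22.6 to 58.2 CPM (n = 6) and NK cells 0 to 20.2 CPM (n = 6), so that the highest T cell sample overlapped with the lowest macrophage sample. After each cell was thinned to 2000 UMIs, which makes depths equal and left out shallower cells (9 macrophages, 6 microglia, 10 T cells and at most 8 in any other class), 7.67% of T cells and 0.372% of NK cells still held a Cd86 UMI, against 17.1% and 2.21% unthinned at median depths of 5394 and 4386 UMIs.

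Cd80 was higher in monocytes than in macrophages. The 6 monocyte samples held 32.3, 52.5, 36.4, 32.9, 24.7 and 26.1 CPM (hashtag samples 2, 3, 5, 6, 7 and 8), against 13.7, 15.2, 18.4, 16.9, 14.7 and 11.8 CPM in macrophages of the same samples. Every monocyte sample lay above every macrophage sample, which 23.1% of the genes tested did in one direction or the other. The log2 fold change was 1.27 (SE 0.18, edgeR adjusted p = 2.34e-05) and passed in all 14 alternatives run. cDC of the same 6 samples held 37.2, 30.1, 36.6, 34.1, 41.0 and 8.33 CPM, with sample 8 below its own macrophages and the others above. The cDC difference was 0.97 on the log2 scale (SE 0.27, edgeR adjusted p = 0.0140) and was lost in 3 of 13 alternatives, without hashtag sample 7 (0.85, adjusted p = 0.0580), with at least 20 cells (adjusted p = 0.107) and with stricter gates (adjusted p = 0.126).

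In microglia Cd80 was lower than in macrophages when summed over cells. Microglia averaged 7.97 ± 4.41 CPM and macrophages 13.8 ± 4.14 CPM (SD, n = 7), with a log2 fold change of -1.18 (SE 0.27, edgeR adjusted p = 0.00173). In samples 2 and 4 microglia were higher all the same, so the groups overlapped. After thinning to 2000 UMIs, 1.73% of microglia and 1.74% of macrophages held a Cd80 UMI, against 1.30% of T cells. Thinned to 4000 UMIs, the shares were 2.53% of microglia, 4.34% of macrophages and 3.48% of T cells. Unthinned, they were 7.30% of microglia and 17.4% of macrophages, at median depths of 7960 and 13621 UMIs. Each thinning was a single random draw, and so few cells with a UMI leave the shares imprecise. Krt8+Wfdc2+ barcodes held 41 Cd80 UMIs among 4360 barcodes, or 0.105 CPM (95% exact Poisson interval 0.0751 to 0.142), and the 362 endothelial barcodes held 0 UMIs, which allows up to 0.632 CPM at a floor of 3 counts. Such intervals and floors cover counting error only.

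Cd83 was higher in microglia than in macrophages in all 7 shared samples. Microglia of hashtag samples 2 to 8 held 566, 601, 771, 1040, 815, 999.9 and 997 CPM, against 331, 252, 166, 350.4, 298, 357 and 303 CPM in macrophages. Every microglia sample was above every macrophage sample, as 18.6% of the genes tested were in one direction or the other. The log2 fold change was 1.37 (SE 0.14, edgeR adjusted p = 7.16e-07) and stayed between 1.25 and 1.48 in all 15 alternatives run. cDC lay between these classes, at 351 to 570.1 CPM (median 490.2, n = 6), and were higher than macrophages in 6 of 6 samples, with a log2 fold change of 0.68 (SE 0.13, edgeR adjusted p = 0.000823). High Cd83 was not particular to microglia, since mature DC held 1071 CPM when pooled, against 890 CPM in pooled microglia.

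Monocytes exceeded macrophages in Cd83 by little, at 341 ± 79.0 CPM against 315 ± 39.1 CPM (SD, n = 6). That log2 fold change of 0.26 (SE 0.09, edgeR adjusted p = 0.0327) was seen in 4 of 6 samples. It was lost in 10 of 14 alternatives, among them the fits without sample 5 (adjusted p = 0.0941), 6 (0.0868), 7 (0.0796) or 8 (0.0611). After thinning, 72.3% of microglia and 40.9% of macrophages held a Cd83 UMI, against 3.35% of NK cells and 4.24% of endothelial barcodes. T cells stood at 6.08% and pDC at 7.14%. The part of background in these low shares was not tested.

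Icosl, the ligand of ICOS, was higher in microglia and cDC than in macrophages. Its gene lies on chromosome 10 (chr10:78069368-78079525, build GRCm38.p6, RefSeq) and that of Cd276 on chromosome 9 (chr9:58524300-58555033). The sequences before the starts of these 2 genes are printed because cDC held more Icosl and less Cd276 than macrophages. Each is 250 bases long and follows RefSeq's promoter table for GRCm38.p6, with the Sp1-type GC box GGGCGG (either strand) in capitals.
Icosl, chr10:78069118-78069367, plus strand: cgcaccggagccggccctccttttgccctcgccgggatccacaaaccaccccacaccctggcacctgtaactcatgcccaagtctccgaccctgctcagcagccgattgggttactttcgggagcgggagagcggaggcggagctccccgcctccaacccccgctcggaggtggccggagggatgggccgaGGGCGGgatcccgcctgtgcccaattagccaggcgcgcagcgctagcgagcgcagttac
Cd276, chr9:58555034-58555283, minus strand: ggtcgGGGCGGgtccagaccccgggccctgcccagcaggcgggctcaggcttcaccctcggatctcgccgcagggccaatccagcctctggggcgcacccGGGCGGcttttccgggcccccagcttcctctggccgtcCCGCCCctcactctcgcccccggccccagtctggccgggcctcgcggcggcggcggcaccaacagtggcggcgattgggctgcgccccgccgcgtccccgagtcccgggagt
Both windows were rich in CpG, with 23 CpG and 68.8% G and C for Icosl and 29 CpG and 77.6% for Cd276, where the median of 32851 promoters held 6 CpG and 52.4%. GGGCGG was found 1 time for Icosl and 3 times for Cd276, and 32.7% of all promoters held it. The table's window for Cd80, which lies within the span of that gene on chromosome 16, held 3 CpG and no GGGCGG. None of the 3 windows held GAGGAAGT (the PU.1 motif, in 2.44% of all promoters) or TATAAA (the TATA box, 12.4%) on either strand. An interferon-response element, read as GAAA, any 2 bases and GAAA (2.98%), was not found on either strand. The same held for 1 narrow form of the NF-kappa-B motif, GGG, any 2 bases and TTTCC (1.41%). Looser forms of the NF-kappa-B motif were not searched, so no statement is made on them. Such matches describe letters only. Cd86, Cd83 and Cd40 had no entry.

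Icosl was higher in microglia than in macrophages in all 7 samples. Microglia of samples 2 to 8 held 40.2, 30.8, 61.3, 50.05, 45.3, 36.7 and 38.8 CPM, against 23.98, 16.1, 14.3, 18.8, 15.6, 19.5 and 13.9 CPM in macrophages, with no overlap between the groups. The log2 fold change was 1.16 (SE 0.17, edgeR adjusted p = 2.93e-05) and passed in all 15 alternatives run. cDC averaged 32.6 ± 10.5 CPM and macrophages 18.0 ± 3.605 CPM (SD, n = 6), a log2 fold change of 1.05 (SE 0.23, edgeR adjusted p = 0.00327), and only in sample 6 were cDC the lower, at 14.6 CPM in cDC and 15.6 CPM in macrophages. After thinning, 9.63% of microglia and 3.66% of cDC held an Icosl UMI, against 2.23% of NK cells.

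Monocytes and macrophages held little Icosl. Thinned, 1.97% of monocytes and 2.37% of macrophages held a UMI, against 2.23% of NK cells, 1.13% of endothelial barcodes and 0.868% of T cells. Pooled, macrophages held 16.8 CPM (95% exact Poisson interval 14.5 to 19.5), against 8.09 CPM (4.18 to 14.1) in NK cells. Monocytes averaged 9.16 ± 3.82 CPM and macrophages 18.0 ± 3.605 CPM (SD, n = 6), lower in 6 of 6 samples (log2 fold change -0.79, SE 0.26, edgeR adjusted p = 0.0201). The call was lost without sample 2 (adjusted p = 0.0607) or sample 5 (0.0870). Krt8+Wfdc2+ barcodes held 2.10 to 4.97 CPM (n = 8), and fell to 3.12 ± 1.00 CPM against 17.5 ± 3.57 CPM in macrophages (SD, n = 7; log2 fold change -2.71, SE 0.18, edgeR adjusted p = 5.35e-11).

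**Figure D3:**
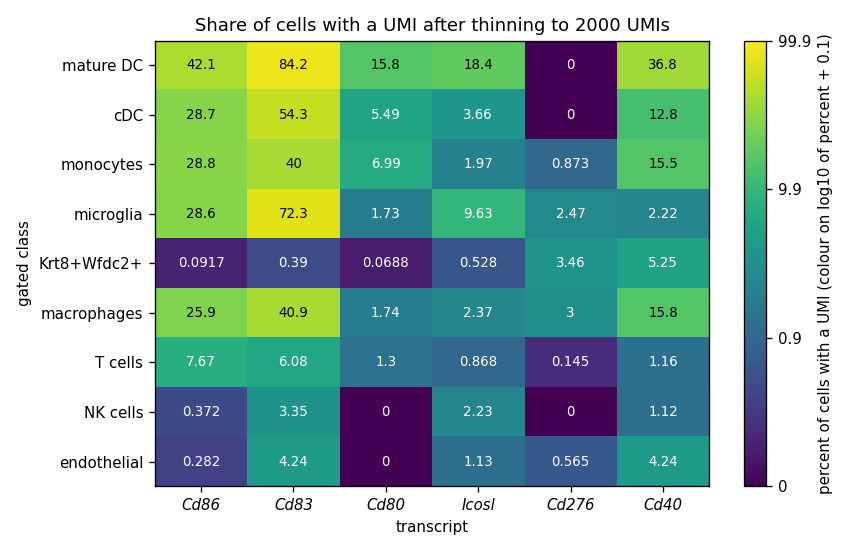
Share of cells with at least 1 UMI of each member (percent, printed in each cell and coloured on a logarithmic scale) after cells were thinned to 2000 UMIs, shallower cells being left out, by gated class. Cd83 reaches 84.2% in mature DC and 72.3% in microglia, and Cd276 is at 3.46% in Krt8+Wfdc2+ barcodes and 3.00% in macrophages.

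Cd276 was the member shared by Krt8+Wfdc2+ barcodes and macrophages and low in cDC. The 8 Krt8+Wfdc2+ samples ranged from 12.6 to 21.2 CPM (median 15.8), and the 7 macrophage samples from 8.58 to 36.0 CPM (median 12.3). Their ranges overlapped and the difference did not pass the test (log2 fold change -0.01, SE 0.19, edgeR adjusted p = 0.958), on a scale where the median of all genes tested was 0.32. Because these barcodes were deeper, 69.5% of them held a Cd276 UMI unthinned against 18.5% of macrophages, and 3.46% against 3.00% once thinned. NK cells held 0 UMIs in 271 cells, which allows up to 2.02 CPM.

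In leukocytes Cd276 followed the macrophage end of the myeloid classes. Monocytes averaged 5.01 ± 3.36 CPM, against 17.4 ± 9.61 CPM in macrophages (SD, n = 6), with every monocyte sample below every macrophage sample (log2 fold change -1.42, SE 0.34, edgeR adjusted p = 0.00286, passing in all 10 alternatives that tested it). Microglia averaged 11.2 ± 5.31 CPM and macrophages 16.1 ± 9.38 CPM (SD, n = 7; log2 fold change -0.66, SE 0.25, edgeR adjusted p = 0.0361), but microglia were higher in 2 of 7 samples. That call was lost in 8 of 12 alternatives, and among them without hashtag sample 2 (adjusted p = 0.0830), 3 (0.0779), 6 (0.0826), 7 (0.0890) or 8 (0.119). All cDC together held 5 Cd276 UMIs, all of them in sample 5, or 2.42 CPM (95% exact Poisson interval 0.787 to 5.66), against 156 UMIs and 14.3 CPM (12.2 to 16.8) in macrophages. Every cDC sample lay below every macrophage sample, as 18.1% of the genes tested in cDC did in one direction or the other. The gene did not pass the filter there; without a filter the log2 fold change was -2.61 (edgeR adjusted p = 1.48e-05).

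Krt8 UMIs were also found outside the Krt8+Wfdc2+ gate. Leukocyte classes carried 1.05 to 2.95% of the Krt8 level of the Krt8+Wfdc2+ gate. Per 100 Krt8 UMIs, macrophages held 136 Cd276 UMIs and microglia 107, against 4.47 in the Krt8+Wfdc2+ barcodes themselves. Monocytes held 48.0, cDC 33.3, T cells 25.6 and NK cells 0. The leukocyte gates admitted only barcodes with under 2 UMIs of Krt8 and Wfdc2 together per 10000 UMIs. The Krt8+Wfdc2+ gate asked for at least 3, so the gates themselves set part of these Krt8 levels and ratios. The part of free RNA in the Cd276 values was not tested.

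Cd40, the receptor of CD40 ligand, was lower in microglia than in macrophages. Microglia of samples 2 to 8 held 8.03, 38.5, 17.5, 11.5, 11.98, 13.6 and 38.8 CPM, against 82.2, 76.1, 31.5, 94.5, 53.9, 116 and 164 CPM in macrophages. Microglia were lower in all 7 samples, although the highest microglia samples (3 and 8) exceeded the lowest macrophage sample (4). The log2 fold change was -2.45 (SE 0.23, edgeR adjusted p = 2.58e-07) and ranged from -3.15 to -2.23 over the 15 alternatives run, all of which passed. Monocytes, at 54.2 to 171 CPM (median 91.7, n = 6), did not pass the test against macrophages (log2 fold change 0.16, SE 0.10, edgeR adjusted p = 0.224).

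cDC held 65.0, 36.1, 57.3, 132, 49.8 and 91.7 CPM of Cd40 in samples 2, 3, 5, 6, 7 and 8, below the macrophages of their own sample everywhere but in sample 6. The difference did not pass the test (log2 fold change -0.43, SE 0.26, edgeR adjusted p = 0.244), but did without sample 6 (-0.78, adjusted p = 0.00205). After thinning, 15.8% of macrophages, 15.5% of monocytes, 12.8% of cDC and 2.22% of microglia held a Cd40 UMI, against 1.12% of NK cells.

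Krt8+Wfdc2+ barcodes carried Cd40 in every sample. Their 8 samples held 17.4 to 36.4 CPM (median 31.9), below the 31.5 to 164 CPM of macrophages in 7 of 7 shared samples (log2 fold change -1.67, SE 0.15, edgeR adjusted p = 5.94e-09), and the ranges overlapped. Since these barcodes held more RNA, the order turned round per barcode, at 2.81 Cd40 UMIs against 1.76 in a macrophage. Thinned, 5.25% of them held a UMI, near the 4.24% of endothelial barcodes and above the 1.12% of NK cells, at median depths of 84290, 7231 and 4386 UMIs. Endothelial samples held 13.1 to 29.6 CPM (n = 7), a range that overlapped with both the Krt8+Wfdc2+ barcodes and microglia.

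Mature DC, the dendritic cells that have switched on Ccr7 for migration to lymph nodes, held the most of every member but Cd276 when all cells of a class were pooled. For Cd40, mature DC of hashtag samples 5, 7 and 8 held 208, 281 and 284 CPM, against 57.3, 49.8 and 91.7 CPM in cDC. All 3 mature DC samples were above all 3 cDC samples, as 51.2% of the genes tested were in one direction or the other at this number of samples. The log2 fold change was 2.05 (SE 0.32, edgeR adjusted p = 0.000666) and passed in all 9 alternatives run.

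The other members of mature DC were less secure. Cd83 reached 1219, 1088 and 852 CPM in mature DC, against 525, 457 and 570.1 CPM in cDC, a log2 fold change of 1.12 (SE 0.23, edgeR adjusted p = 0.00309) that was lost without the filter on low counts (adjusted p = 0.0573). Icosl reached 69.2, 150.02 and 120.2 CPM, against 44.6, 26.4 and 36.7 CPM in cDC, a log2 fold change of 1.62 (SE 0.45, edgeR adjusted p = 0.0174) that was lost without sample 7 (adjusted p = 0.0817) or 8 (0.128). Cd80 rested on 9, 6 and 5 UMIs in the mature DC of these samples (77.8, 113 and 54.6 CPM, against 36.6, 41.0 and 8.33 CPM in cDC). Its log2 fold change of 1.64 (SE 0.51, edgeR adjusted p = 0.0302) was lost when any of the 3 samples was left out (adjusted p = 0.0555 to 0.106). Cd86 overlapped, at 285, 244 and 120.2 CPM in mature DC and 143, 264 and 183 CPM in cDC, and did not pass (log2 fold change 0.28, SE 0.34, edgeR adjusted p = 0.581). Over all 39 mature DC, Cd276 had 1 UMI, or 3.04 CPM, with a 95% exact Poisson interval (0.0770 to 16.96) that takes in the macrophage level.

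The 2 main subsets of cDC were set side by side without a test, in the 3 hashtag samples that held at least 10 cells of both. Type 2 cDC held 76.5, 85.4 and 136 CPM of Cd40 in samples 5, 7 and 8, against 40.5, 25.6 and 46.2 CPM in type 1 cDC. The type 2 subset was thus higher in each of the 3. For Cd86 the values were 240.3, 436 and 131 CPM in type 2 and 115, 210 and 159 CPM in type 1, so that sample 8 went the other way. Pooled over all samples, Cd40 was at 101 CPM (95% exact Poisson interval 80.2 to 125) in 81 type 2 cells and 47.1 CPM (33.8 to 63.9) in 56 type 1 cells.

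The tags report the proteins on the surface. Each antibody carries a DNA barcode of 15 bases, and those of CD86 and CD83 and of CD90.1, the antibody used here as a gauge of background because these mice carry the other allele of the antigen, were as follows.
CD86 tag: ctggatttgtgtatc
CD83 tag: tctcaggcttcctag
CD90.1 tag: agtatgggatgcaat
The nearest of the other barcodes among the 48 compared differed from that of CD86 at 8 bases, from that of CD83 at 7 and from that of CD90.1 at 6. Tags were read both as a share of all antibody tags, the main scale, and per cell. The scales differ because the total of all antibody tags differed between classes: the hashtag samples held 3948 to 7028 tags per macrophage, against 868 to 2523 per microglia, 2492 to 3116 per monocyte and 1159 to 1500 per Krt8+Wfdc2+ barcode.

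The CD86 tag was highest per cell on macrophages among the 4 larger myeloid classes, an order the transcript did not have in CPM. Per cell, pooled Cd86 UMIs were also highest in macrophages, at 2.73, against 2.42 in cDC, 1.98 in monocytes and 1.97 in microglia. Microglia of samples 2 to 8 held 19.4, 18.4, 6.23, 11.3, 20.1, 15.5 and 12.3 CD86 tags per cell, against 49.4, 66.7, 57.5, 103, 60.5, 110.4 and 112 in macrophages. No microglia sample reached the lowest macrophage sample (log2 fold change -2.46, SE 0.35, edgeR adjusted p = 5.86e-07; exact two-sided sign-flip permutation p = 0.0156, the smallest that 7 samples allow). By share of tags CD86 did not pass, at 107 per 10000 tags in microglia against 139 in macrophages (log2 fold change -0.41, SE 0.24, edgeR adjusted p = 0.103). Among the 32 antibodies tested, 68.8% rose and 15.6% fell in microglia by share, while 87.5% fell per cell.

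Monocytes and cDC also held less CD86 than macrophages, on both scales. Monocytes averaged 25.4 ± 14.3 CD86 tags per cell and macrophages 83.6 ± 27.8 (SD, n = 6; log2 fold change -1.82, SE 0.21, edgeR adjusted p = 3.61e-14), where 93.8% of the antibodies fell. By share the log2 fold change was -0.82 (SE 0.16, edgeR adjusted p = 0.00222), where 31.2% rose and 31.2% fell, and the call was lost without the hashtag block (-0.70, adjusted p = 0.0889). cDC averaged 33.8 ± 20.3 CD86 tags per cell, against the same macrophages (log2 fold change -1.42, SE 0.29, edgeR adjusted p = 0.000323), where 9.38% of the antibodies rose and 75% fell. The cDC difference by share was -0.84 on the log2 scale (SE 0.24, edgeR adjusted p = 0.00149), where 18.8% rose and 31.2% fell, and was lost with TMM scaling (-0.50, adjusted p = 0.0810). The 12 cDC of sample 3 stood apart, with 73.8 tags per cell against 66.7 in its macrophages.

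Krt8+Wfdc2+ barcodes lay within the range of endothelial barcodes and overlapped with NK cells, with 3.15 to 4.65 CD86 tags per barcode over 8 samples. Macrophages held 49.4 to 112 (log2 fold change of Krt8+Wfdc2+ barcodes against them -4.24, SE 0.27, edgeR adjusted p = 2.32e-15). NK cells held 3.43 to 8.14 and endothelial barcodes 1.85 to 6.46. Per cell, 6.25% of the antibodies rose and 81.2% fell in Krt8+Wfdc2+ barcodes, and by share 53.1% rose and 28.1% fell. CD86 fell by share as well (log2 fold change -2.21, SE 0.17, edgeR adjusted p = 1.14e-07).

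**Figure D4:**
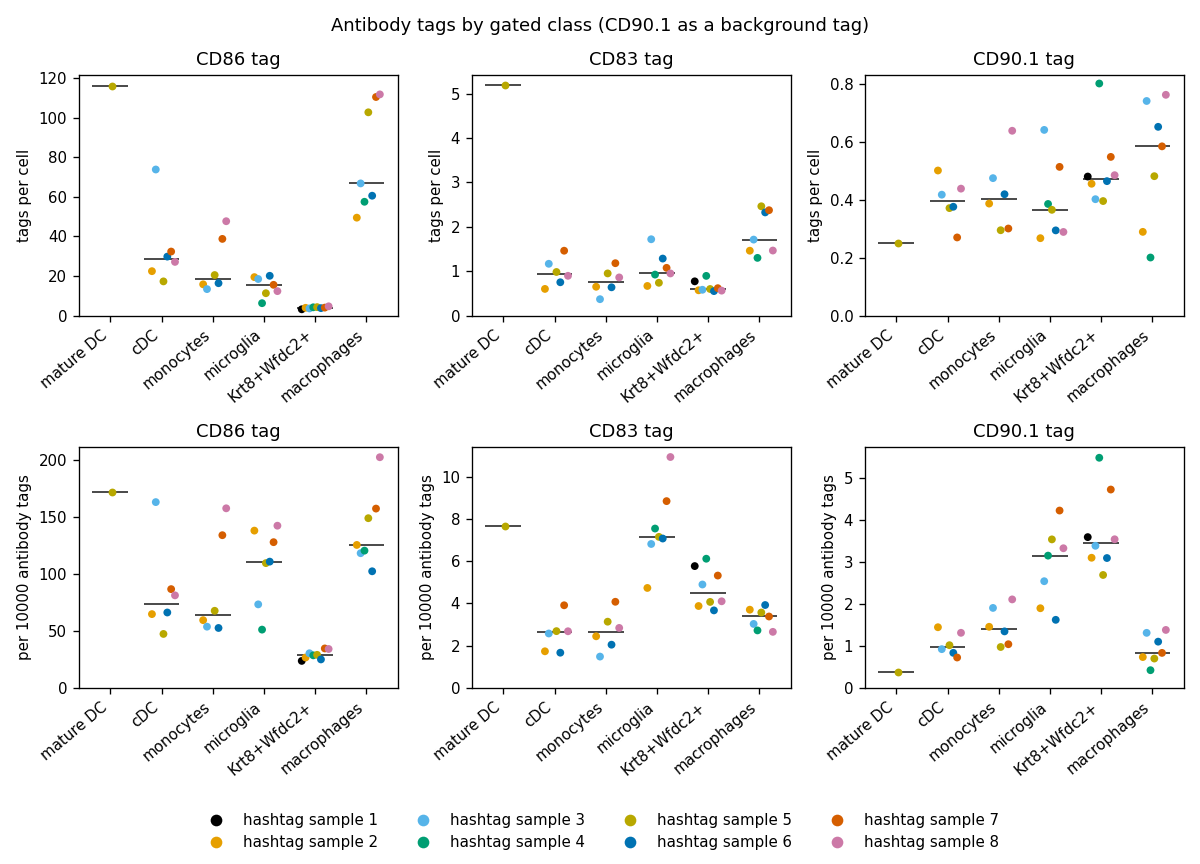
CD86, CD83 and CD90.1 tags by gated class, 1 point per hashtag sample with at least 10 cells and a line at the median, as tags per cell (upper row) and per 10000 antibody tags (lower row). CD86 per cell lies between 49.4 and 112 in macrophages and at most at 20.1 in microglia, while CD83 per 10000 tags is higher in microglia in every shared sample.

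The CD83 tag was sparse and its direction depended on the scale. Microglia held 1.05 ± 0.359 CD83 tags per cell and macrophages 1.87 ± 0.499 (SD, n = 7; log2 fold change -0.87, SE 0.22, edgeR adjusted p = 0.000766). By share the order turned round, at 7.59 ± 1.92 per 10000 tags in microglia and 3.28 ± 0.4929 in macrophages (log2 fold change 1.204, SE 0.23, edgeR adjusted p = 1.07e-06). The background tag CD90.1 moved alike, with a log2 fold change of 1.59 by share (SE 0.36, edgeR adjusted p = 3.34e-05) and of -0.51 per cell (SE 0.26, adjusted p = 0.0662). Its part in the CD83 value was not tested. In Krt8+Wfdc2+ barcodes CD83 was again higher by share (0.46, SE 0.18, edgeR adjusted p = 0.0378) and lower per cell (-1.59, SE 0.23, adjusted p = 1.32e-07). The call by share was lost without sample 3, 4, 5, 7 or 8 (adjusted p = 0.0552 to 0.0947), and CD90.1 stood at 1.93 by share.

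Per cell, CD83 was also lower in monocytes (0.774 ± 0.284 tags, against 1.97 ± 0.472 in macrophages, SD, n = 6; log2 fold change -1.35, SE 0.21, edgeR adjusted p = 3.15e-09). cDC followed, at 0.976 ± 0.307 tags (log2 fold change -1.01, SE 0.21, edgeR adjusted p = 0.00034). By share neither passed, at -0.34 in monocytes (SE 0.18, edgeR adjusted p = 0.118) and -0.39 in cDC (SE 0.24, adjusted p = 0.175). Per cell, 93.8% of the antibodies fell in monocytes and 75% in cDC. The background tag CD90.1 fell per cell as well, at -0.48 in monocytes (SE 0.21, edgeR adjusted p = 0.0273) and -0.59 in cDC (SE 0.21, adjusted p = 0.0168). The part of background in these CD83 values was not tested.

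Mature DC held more of both tags than cDC, on either scale. The CD86 tag reached 116, 119 and 203 per mature DC in samples 5, 7 and 8, against 17.2, 32.3 and 27.1 per cDC. By share it reached 171, 148 and 256 per 10000 tags in mature DC, against 47.2, 86.5 and 81.0 in cDC, a log2 fold change of 1.44 (SE 0.35, edgeR adjusted p = 0.000673), where 15.6% of the antibodies rose and 75% fell. The share call was lost without sample 5 (adjusted p = 0.0926) or 8 (0.0568). Per cell the log2 fold change of CD86 was 2.51 (SE 0.39, edgeR adjusted p = 0.0020), where 18.8% rose and 9.38% fell. The CD83 tag reached 5.19, 4.25 and 3.75 per mature DC, against 0.981, 1.46 and 0.896 per cDC (log2 fold change 2.02, SE 0.23, edgeR adjusted p = 0.000651; by share 0.95, SE 0.29, adjusted p = 0.00472, lost without sample 5 or 8). An exact sign-flip permutation test over 3 samples cannot go below p = 0.25, which both tags gave on both scales.

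The number of CD86 tags per Cd86 UMI differed between the classes. Pooled over cells there were 33.3 CD86 tags per Cd86 UMI in macrophages, 14.5 in monocytes, 11.5 in cDC and 7.72 in microglia. The macrophage samples (26.4 to 63.8) did not overlap with the monocyte (8.31 to 18.6), cDC (8.98 to 20.6) or microglia samples (4.85 to 10.5), and the 16 mature DC of sample 5 held 56.2. These ratios are descriptions without a test, and the higher total of all tags on macrophages enters them. T cells held 25.3 CD86 tags per cell with 0.265 Cd86 UMIs per cell, or 95.4 tags per UMI. The Krt8+Wfdc2+ barcodes held 103 tags per UMI, on 168 Cd86 UMIs in 4360 barcodes. Endothelial barcodes held 230, on 5 UMIs, and NK cells 50.2, on 21 UMIs. Where Cd86 UMIs are this few per cell, a high ratio can come with few tags. The part of background tags in these ratios was not tested.

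Within a class, tags were also set against the transcript cell by cell. Thinned monocytes with a Cd86 UMI carried 44.5 CD86 tags per cell, against 22.2 in monocytes without one. For macrophages the values were 109.5 and 84.7, for cDC 37.8 and 24.6, and for microglia 15.7 and 14.98. By share of tags the order turned round in microglia, at 106 per 10000 tags with a Cd86 UMI against 113 without, and in mature DC, at 152 against 193. It held in monocytes, at 150.1 against 76.0, in macrophages, at 177 against 139.99, and in cDC, at 93.0 against 67.6. Spearman's rho of tag and transcript was 0.40 in 458 monocytes, 0.27 in 634 macrophages, 0.50 in 164 cDC and 0.08 in 405 microglia. All these values are descriptions over cells that share libraries and vary in depth. The cells were pooled over hashtag samples, so differences between samples enter the values. Monocytes held 38.7 and 47.6 CD86 tags per cell in samples 7 and 8, against 13.3 to 20.4 in samples 2, 3, 5 and 6.

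**Figure D5:**
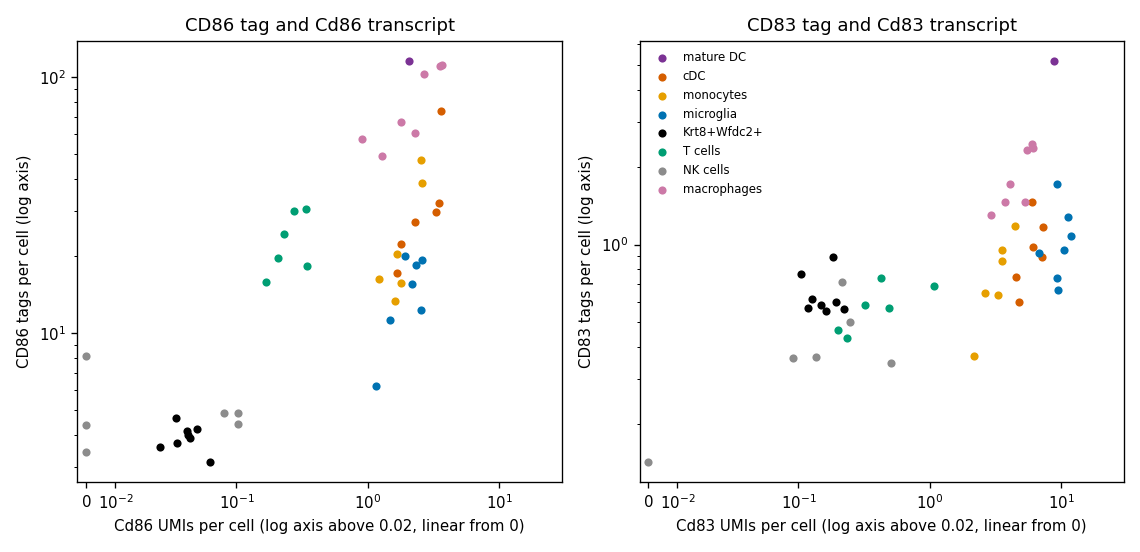
Antibody tags per cell against UMIs of the matching transcript per cell for CD86 and CD83, 1 point per hashtag sample and gated class (log axes, the x axis linear near 0). Macrophages lie between 49.4 and 112 CD86 tags per cell, above every monocyte and microglia sample and above all cDC samples but sample 3, at 73.8.

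The other genes of the pathway are given as counts over lists. CD40 signalling genes (TNF receptor-associated factors, NF-kappa-B subunits and their targets) were 17. Against macrophages, 9 of 17 rose and 2 fell in monocytes, where 22% and 21.6% of all genes did (median log2 fold change 0.41, against -0.04 over all genes), with Bcl2l1, a survival gene, at -1.61, the NF-kappa-B subunit Nfkb1 at 1.23 and the ubiquitin ligase Birc3 at 0.92. In microglia 5 of 17 rose and 6 fell (median 0.06, against 0.01), near the 26.8% and 26.5% of all genes, with the largest change in Traf1 at -2.67, a signalling adaptor of the CD40 pathway. In mature DC 10 of the 12 tested rose against cDC, where 16.9% of all genes did (median 1.63, against -0.05), led by Relb at 3.72, Bcl2a1b at 2.56 and Nfkb2 at 2.50. In Krt8+Wfdc2+ barcodes 2 of 17 rose and 15 fell, where 48.5% and 32.6% of all genes did (median -1.48, against 0.32).

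The list of CD86 and MHC class II turnover holds MHC class II genes, their activator Ciita and the ligases March1 and March8. In microglia 5 of the 7 genes tested fell, where 26.5% of all genes did (median log2 fold change -3.68, against 0.01 over all genes). H2-Eb1 was at 229.8 CPM there, against 2948 CPM in macrophages (-3.96, SE 0.31, edgeR adjusted p = 4.78e-08). In monocytes 6 of 7 fell, where 21.6% of all genes did (median -1.59, against -0.04), H2-Eb1 at -2.77. In cDC 5 of the 6 tested rose, where 15.5% of all genes did (median 1.11, against -0.01). H2-Ab1 was at 7657 CPM there, against 3996 CPM in macrophages (1.17, SE 0.19, edgeR adjusted p = 0.000355). In mature DC 2 of the 5 tested fell against cDC, where 14.5% of all genes did, H2-Ab1 at -1.46 and Cd74 at -0.71.

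Other checkpoint ligands are given next, by values and counts. In microglia the poliovirus receptor relative Nectin2 (log2 fold change 2.40) and Vsir (1.14), which encodes VISTA, rose, and Cd274, which encodes PD-L1, fell (-1.75). Of the 9 genes listed, 5 were tested there, and 2 rose and 2 fell, where 26.8% and 26.5% of all genes did. In mature DC 3 of the 5 tested rose against cDC, where 16.9% of all genes did, with Pdcd1lg2, which encodes PD-L2, at 3.65, Cd274 at 2.58 and Pvr at 1.52. VISTA and PD-L1 were the targets of the treatment that some of the brains received, and its part in these values cannot be told apart here. In monocytes 2 of the 4 tested rose, where 22% of all genes did, Pvr at 0.57 and Lgals9 at 0.32, and in cDC 3 of 4 fell, where 16.8% did, Vsir at -1.11, Cd274 at -0.82 and Lgals9 at -0.51.

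Interleukin and maturation genes were counted likewise, with no test of the lists. In monocytes 4 of the 7 interleukin genes tested rose and 1 fell, where 22% and 21.6% of all genes did, with Il6 at 3.55, Il15 at 1.54 and Il1b at 1.36. In microglia 4 of the 6 tested fell, where 26.5% of all genes did, among them Il10 (-3.60) and Il1b (-2.47), and Tnf rose (1.74). In mature DC the genes of dendritic maturation and migration rose in 11 of 11 tested (median 3.72), where 16.9% of all genes did, led by Socs2 at 6.15, the chemokine Ccl5 at 5.66 and Cd200 at 5.57, and Il12b rose by 5.27. The mature DC gate itself asked for other maturation genes, such as Ccr7 and Fscn1, and the cDC gate capped them. The count of maturation genes is thus not independent of the gates. Of 7 TNF family ligands, only Tnfsf9 was tested in the leukocyte comparisons, and it fell in microglia (-1.51). No receptor of the members on T cells (Cd28, Ctla4, Icos, Cd40lg) passed the filter in any comparison.

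Likeness was taken over 60 sums of hashtag sample and class as Pearson's r of log2(CPM + 10), among 5846 genes that averaged at least 20 CPM and were neither members nor gate markers. Cd86 was most like Irf5 (r = 0.92), a transcription factor of myeloid cells, Fcgr1 (0.91) and H2-DMa (0.90). Cd83 was most like Irf5 (0.92), Ctss (0.92) and Ly86 (0.91), and Cd86 and Cd83 correlated with each other at 0.95. Icosl was most like Cst3 (0.84), Cd80 like Pmaip1 (0.81), Cd40 like Parp12 (0.79) and Cd276 like Mmp14 (0.80), a membrane metalloproteinase. Cd276 correlated with Cd86 at -0.04. These sums share 1 capture and 8 hashtag samples, so the values are descriptions.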

How the data were processed

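Transcripts, antibody tags and hashtags were deposited as raw UMI counts per barcode. Per the submitters' processing notes, Cell Ranger 3.1, Seurat 3.1.1 and build mm10 were used on the authors' side. Barcodes were kept from 500 genes upward and up to 15% mitochondrial counts, and hashtags were called with HTODemux (Seurat 5.3.0, quantile 0.99). Hashtag doublets were left out. No doublet caller was run, so doublets of the same hashtag remain. Classes were gated on marker counts per 10000 UMIs, and the gate thresholds were set after tables that also showed the members' values had been seen. The members and gene lists were chosen with earlier results of these data known.

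For each class, counts were added up within a hashtag sample (at least 10 cells) and tested with edgeR 4.0.16 in R 4.3.3 (TMM, filterByExpr, quasi-likelihood, Benjamini-Hochberg at 0.05), with the hashtag sample as a block because both classes came from the same hashtag sample. Deviations of same-numbered sums correlated at -0.00396 to 0.286 over the 5 comparisons. Tags were tested likewise without TMM, over the 32 antibodies left after CD335, CXCR4 and KLRG1, and 1 barcode over 100000 tags was left out. Named genes were the members, at most 3 genes per list and comparison with the largest fold change that passed, and the 3 genes most like each member. Alternatives changed the block, the hashtag rule, the gates, the cell minimum, the filter, the tag scale and the tool (DESeq2 1.42.0), or left out 1 hashtag sample. The tests were checked on simulated data.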

Additional observations from a re-analysis of the deposited data

Results flagged for a closer look

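Of 40 groups of hashtag samples examined, 6 held a sample far from the others, where chance marks about 1 in 20. Cd276 in macrophages reached 36.0 CPM in hashtag sample 2, with the next highest sample at 18.6 CPM. Icosl in monocytes reached 16.5 CPM in sample 7, with the next at 9.16 CPM. Cd80 in cDC was lowest in sample 8, at 8.33 CPM, with the next lowest at 30.07 CPM. Cd276 in cDC was at 7.96 CPM in sample 5 and at 0 in the other samples. Cd80 in Krt8+Wfdc2+ barcodes was at 0 CPM in the 48 barcodes of sample 1, with the next lowest at 0.0836 CPM. CD86 tags per cell in cDC reached 73.8 in the 12 cells of sample 3, with the next highest sample at 32.3.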

How the results depend on the processing

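Of the results for single members and tags, 425 kept their direction and their side of the threshold, 48 lost the call, 12 gained it and 2 changed sign. Counted as tags per cell, CD83 turned to -0.87 in microglia and -1.59 in Krt8+Wfdc2+ barcodes. Counts of calls moved by over 1.5 times in 10 of 129 fits. Without the replicate block 12 antibodies were called in monocytes, against 20 with it. A joint fit of all classes called 2840 genes in cDC, against 1813, and tags per cell called 27 antibodies, against 16. In mature DC against cDC, the fit at 5 cells called 922 genes, DESeq2 called 556, the joint fit 1703, and leaving out 1 hashtag sample 534 (sample 5) to 1022. For tags there, 29 antibodies were called, against 9 per cell, 10 with TMM, and 16 (without sample 7), 18 (without sample 5) and 22 when 1 sample was left out. Stricter gates gave no value for mature DC, and the minimum of 20 cells was not run for them. Without the block, the calls of Cd276 in microglia (adjusted p = 0.0706), Cd83 in monocytes (0.127), Cd80 in mature DC (0.0599) and the CD86 tag in monocytes by share (0.0889) were lost, all by edgeR; the cause was not tested. Of 72 thinned shares set against another depth, 64 moved, since shares rise with depth.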
